A study of Oryza sativa with 239 samples.

Results

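WRC50 is 1 of 40 rice (Oryza sativa) cultivars and lines whose leaf messenger RNA was sequenced with and without drought, and it is described here from its own 6 libraries of the 239 in the series. Its members were chosen by the cultivar name in the sample title: 3 libraries labelled moderate drought and 3 labelled control, all from leaf on day 5 of the treatment. WRC numbers name accessions of the World Rice Core collection, a small set of landraces and varieties that stands for the diversity of cultivated rice. The cultivar was singled out with the size of its drought response in these data in view, so that size is given as a description, and the tests below describe these libraries.

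Germinated seeds were planted singly in pots of calcined clay that were watered from below by an automatic system in a growth chamber. Drought plants were drained by raising their pots above the supply hose, and control plants stayed irrigated. The leaf sample joined the youngest fully expanded leaf and the one before it. Per the treatment protocol, treatment began 14 days after sowing, and that text describes a severe drought of 9 days followed by 6 days of watering, whereas the sample labels say moderate drought on day 5. The sample labels are followed here. No transgene or mutation is named for the WRC50 plants. Among the 39 others, 1 line is labelled Dro1-NIL and is counted as a separate cultivar. Its controls correlated at 0.988 with IR64 controls over the 1500 genes described below. Since nothing states that the libraries are of separate plants, p values measure the spread between libraries.

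When soil dries, roots and leaves accumulate the hormone abscisic acid, which closes stomata and switches on protective genes in the leaf. Growth, cell division and photosynthesis genes are commonly turned down as leaf water status falls. Rice, a crop of wet fields, is known as sensitive to soil drying, and its cultivars differ widely in how soon their leaves respond.

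The 3 drought libraries of WRC50 held 30.2, 8.77 and 8.52 M assigned reads (M stands for mega), against 16.1, 13.2 and 10.7 M in the 3 control libraries. The other 233 libraries held a median of 15.2 M, and 4 of them held under 1 M. By 1500 genes that separate the other cultivars, all 6 libraries matched WRC50 best, with correlations across genes of 0.989 to 0.996 to its remaining libraries. The next best match was KP in each case, at 0.697 to 0.704. The label japonica, the rice subspecies that includes Koshihikari, is not in the sample labels of WRC50. In these 1500 genes the WRC50 controls correlated at 0.563 with Koshihikari controls and at 0.317 with controls of IR64, an indica variety, and WRC50 was 1 of 10 cultivars among 38 that stood nearer to Koshihikari than to IR64. Leaf identity was not checked against marker genes, because the reference at hand paired 1 of 55986 identifiers with a named gene. No function is given for the genes below, and each chromosome number is the one in the identifier.

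Replicates of a group differed from each other, and the calls below depend on the replicates numbered 3. Among 14301 genes with a mean of at least 5 CPM (counts relative to a common library size, scaled by TMM) in WRC50, drought replicate 3 was at least 2-fold above both other drought libraries in 2.45%, against 0.0979% and 0.168% for drought replicates 1 and 2. Control replicate 3 was at least 2-fold above both other controls in 0.825% of these genes, against 0.350% and 0.0909% for control replicates 1 and 2. In the other direction, drought replicates 1, 2 and 3 were at least 2-fold below both others in 0.273%, 0.895% and 0.587%, and control replicates 1, 2 and 3 in 0.811%, 0.0629% and 0.706%, so replicate 3 was not the one farthest below in either group. On the log2 CPM scale across genes, drought replicate 3 correlated at 0.980 and 0.972 with drought replicates 1 and 2, which correlated at 0.992 with each other. Control replicate 3 correlated at 0.989 with control replicate 2 and at 0.976 with control replicate 1, and controls 1 and 2 correlated at 0.986. Drought replicate 1 correlated at 0.991 with control replicate 1.

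In WRC50, most of the leaf transcripts that passed the test were lower in drought, and how uneven the split was depended on the method. Of 28297 genes tested, 93 were lower in drought leaves (0.329% of those tested) and 18 were higher (0.0636%), at an adjusted p under 0.05 in edgeR's quasi-likelihood test and a fold of at least 2. Together they made up 0.392% of the tested genes. At any fold, 131 genes passed the adjusted threshold (0.463%), 26 of them higher in drought. At an unadjusted p under 0.05 there were 3010 genes, where an even spread of p values would give 1415. The median log2 fold change over all tested genes was 0, but 2270 of these genes had no read in WRC50 and so no change to measure. By level, the median was 0.0738 at 1 to 5 CPM, 0.0324 at 5 to 20 CPM and 0.00238 at 20 to 100 CPM. It was -0.0874 at 100 CPM or more. In DESeq2 on the 6 WRC50 libraries alone, 145 genes were higher and 280 lower, and in edgeR on them alone 0 were higher and 24 lower. Over all tested genes, the drought libraries lay above all controls in 2230 genes and below all controls in 2501.

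The count of changed genes rested on replicate 3 of each group. Without control replicate 3 it was 1 gene, and without drought replicate 3 it was 3 genes. Without both it was 0 genes by edgeR, with 1206 genes at an unadjusted p under 0.05. It was 28 genes without drought replicate 1 and 21 without drought replicate 2, against 159 and 94 without control replicates 1 and 2. When size factors of another kind (RLE) were used over all 239 libraries, 84 genes were called, 27 of them higher and 57 lower. That scaling moved the median gene by 0.186 on the log2 scale, and it drew on the 264 genes with a read in every library, the shallowest included. With the libraries under 1 M reads left out, an alternative chosen after seeing the data, the same scaling drew on 15718 genes and called 17 genes higher and 95 lower.

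The 93 genes that fell in drought had a median log2 fold change of -2.20, and their range was -5.20 to -1.04. A 4-fold decrease or more was found in 54 of them. Abundant genes were among them: 22 averaged at least 100 CPM over the 6 libraries, and the highest averaged 2289 CPM. Summed over the 93 genes, the level was 5142, 4111 and 3901 CPM in drought libraries 1, 2 and 3, against 16493, 16481 and 28440 CPM in control libraries 1, 2 and 3. The groups did not overlap, at 4385 ± 664 CPM in drought leaves and 20471 ± 6901 CPM in control leaves (SD, n = 3 each), and control replicate 3 was the highest library. In bulk leaf RNA, fewer cells of a type and less RNA per cell cannot be told apart.

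Control replicate 3 was the highest control in 86 of the 93 lower genes, or 92.5%, and in 38.8% of all genes of at least 5 CPM. It was at least 2-fold above both other controls in 37 of the 93. With control replicate 3 left out, 1 gene was called, and 92 of the 93 genes had a log2 fold change below 0, with a median of -1.66. All 3 drought libraries lay below all 3 controls in 83 of the 93 genes, and over all tested genes that held for 8.84%; the 93 were chosen on these libraries, so nothing is read from the difference.

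The 18 genes that rose in drought had a median log2 fold change of 1.67, with a range of 1.03 to 3.72. A 4-fold increase or more was found in 6 of them, and 12 averaged at least 5 CPM. Their summed level was 477, 315 and 993 CPM in drought libraries 1, 2 and 3, against 201, 174 and 118.2 CPM in control libraries 1, 2 and 3. Every drought library exceeded every control, at 595 ± 354 CPM in drought leaves and 164 ± 42.2 CPM in control leaves (SD, n = 3 each). Drought replicate 3 was the highest drought library in 11 of the 18 genes (61.1%), and in 39.6% of all genes of at least 5 CPM, and it was at least 2-fold above both others in 8. Without drought replicate 3, none of the 18 was called, and their median was 1.19. The groups did not overlap in 14 of the 18, and drought lay above control in this way in 7.88% of all tested genes; here too the choice of the genes bears on the count.

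**Figure D1:**
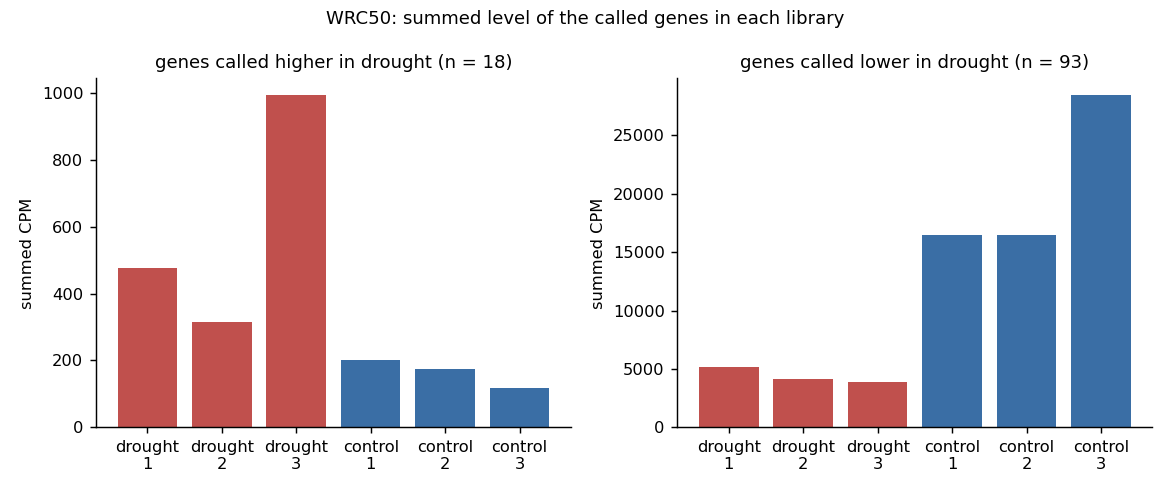
Summed CPM of the 18 genes called higher (left) and the 93 genes called lower (right) in each WRC50 library, 1 bar per library, drought libraries in red and control libraries in blue, with axes from 0. The genes were chosen on these libraries; drought replicate 3 reached 993 CPM on the left and control replicate 3 reached 28440 CPM on the right.

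Genes called lower were found at all levels of expression. Among 1757 tested genes that averaged at least 100 CPM, 22 were lower (1.25%) and 1 was higher. Between 20 and 100 CPM 26 were lower and 3 higher, and between 5 and 20 CPM the counts were 27 and 8. Below 5 CPM, 15 genes of 1 to 5 CPM and 3 genes under 1 CPM were lower, and 5 and 1 were higher. In 10 of the 93 lower genes all 3 drought libraries were below 1 CPM.

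**Figure D2:**
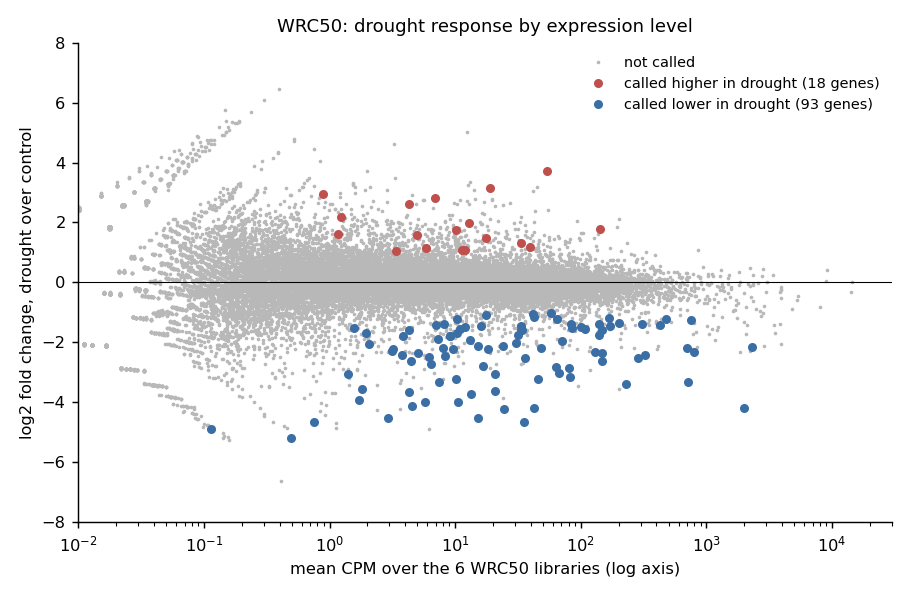
Log2 fold change of drought over control in WRC50 (vertical) against the mean CPM over its 6 libraries (horizontal, log axis), 1 point per tested gene, with the 18 genes called higher in red and the 93 called lower in blue. The lower genes run from under 1 CPM to 2289 CPM, and the grey points are genes that were not called.

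By a rule that took the largest changes among called genes of at least 5 CPM with groups that did not overlap, 2 genes were named in each direction. LOC_Os01g16310, on chromosome 1, had 15.6, 6.75 and 80.6 CPM in drought leaves, against 2.38, 5.23 and 3.97 CPM in control leaves. Drought replicate 3 was far above the other drought libraries, and the lowest drought value was just above the highest control. Its log2 fold change was 3.15 ± 0.83 (SE), with an edgeR adjusted p of 0.0457, and the call was lost whichever 1 of the 6 libraries was left out. Without drought replicate 3 the log2 fold change was 1.57. LOC_Os10g30410, on chromosome 10, had 7.77, 3.00 and 25.6 CPM in drought leaves, against 1.65, 2.08 and 1.29 CPM in control leaves. Drought replicate 3 was again the highest, and its log2 fold change was 2.82 ± 0.66 (SE), with an edgeR adjusted p of 0.0204. It was 1.75 without drought replicate 3, and the call was lost without that library or any control replicate. The WRC50 control level of LOC_Os10g30410 ranked 40 of 40 cultivars. Of the 39 other cultivars, 27 had the same sign for LOC_Os01g16310 and 29 for LOC_Os10g30410, and each gene was called higher in 1 of them.

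Among the genes that fell, LOC_Os09g34140 on chromosome 9 had 4.00, 1.29 and 2.09 CPM in drought leaves, against 30.6, 37.6 and 136 CPM in control leaves. The groups were far apart, and control replicate 3 was well above the other controls. Its log2 fold change was -4.67 ± 1.03 (SE), with an edgeR adjusted p of 0.0129. The call was lost without control replicate 3 (-3.67) and without any 1 drought replicate (-5.33 to -4.40). It had the same sign in 36 of the 39 other cultivars and was called lower in 7 of them. LOC_Os09g26670, also on chromosome 9, had 1.43, 1.71 and 0.521 CPM in drought leaves, against 6.01, 6.38 and 75.6 CPM in control leaves. Control replicate 3 alone reached that level. Its log2 fold change was -4.52 ± 0.88 (SE), with an edgeR adjusted p of 0.0030, and it was -2.29 without control replicate 3 and -4.23 without drought replicate 3, not called in either case. It had the same sign in 34 of the 39 other cultivars and was called lower in 2 of them.

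**Figure D3:**
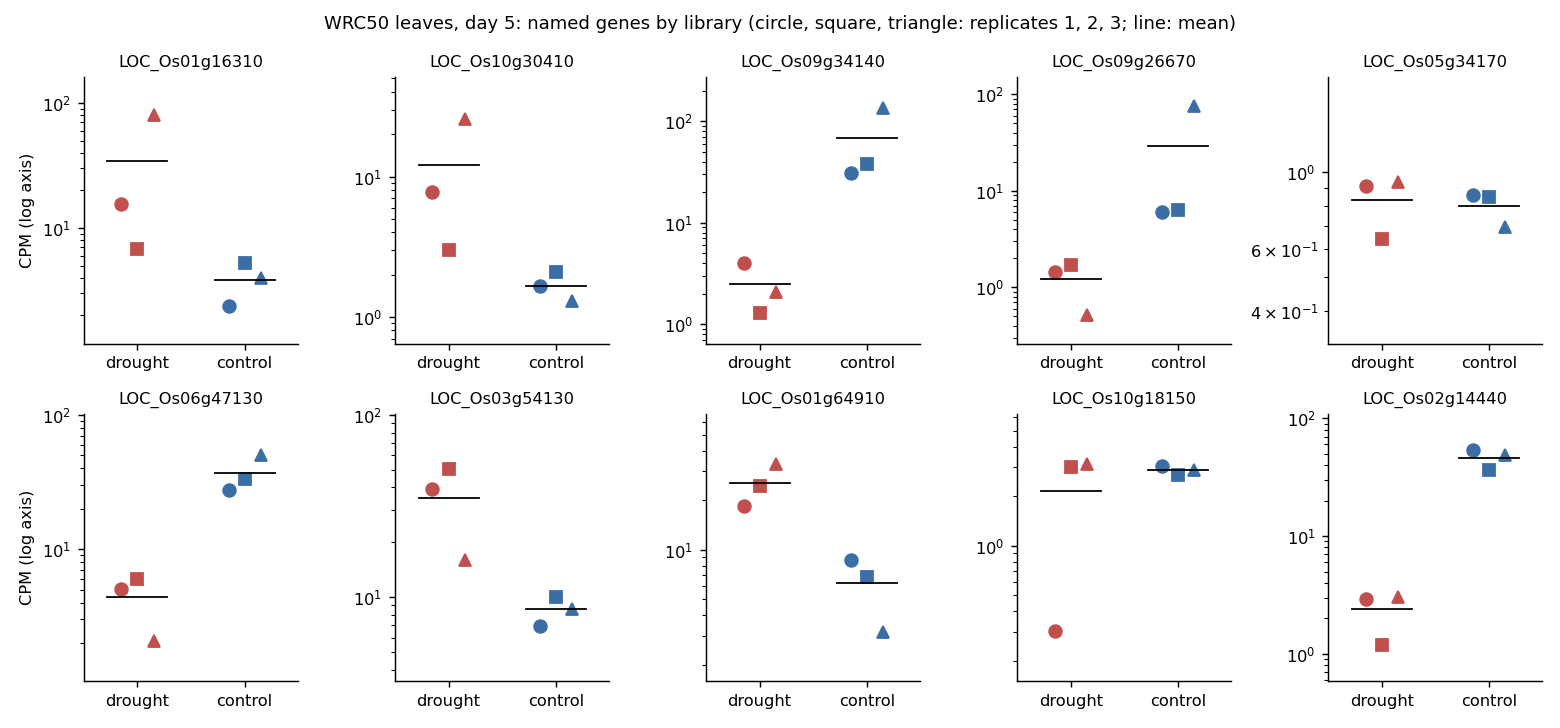
CPM (log axis) of 10 of the genes named in the text in the 3 drought (red) and 3 control (blue) libraries of WRC50. Circle, square and triangle are replicates 1, 2 and 3 and the line is the mean. In LOC_Os01g16310 the triangle at 80.6 CPM lies above the other drought libraries, and in LOC_Os09g26670 the triangle at 75.6 CPM lies above the other controls.

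The genes called in WRC50 mostly had the same direction in the other cultivars. The libraries of those cultivars did not enter the WRC50 fold changes, but they took part in the filter and the shared estimate of the spread, and 8 of the genes were also called when the WRC50 libraries were fitted alone in edgeR. No gene was called without both replicates numbered 3, so this comparison has no value without them. In the median cultivar, 88.3% of the 93 lower and 18 higher genes together had the sign they had in WRC50, against a median of 58.2% over all tested genes. These shares are over unlike genes. Of the 28297 tested genes, 9605 averaged under 1 CPM in WRC50, where signs are uncertain, and 2270 had no read there. Of the called genes, 75 of the 93 and 12 of the 18 averaged at least 5 CPM. The gap between the shares was not tested. Among the 39 others the share ran from 33.3% in WRC51 to 95.5% in WRC22, and it was 93.7% in WRC24, 92.8% in WRC01, 91.9% in Koshihikari and 89.2% in KP. It exceeded 80% in 32 cultivars. WRC51 and WRC44, at 33.3% and 43.2%, were below the range over all tested genes, which was 46.9% to 64.7% across cultivars.

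The decreases were smaller elsewhere. The median log2 fold change of the 93 lower genes was -2.20 in WRC50, where they were chosen, and between -2.03 in WRC24 and 0.06 in WRC51 among the other cultivars, with a median of -0.69. For the 18 higher genes the WRC50 median was 1.67, and the other cultivars lay between -0.09 in WRC51 and 0.94 in KP. Selection on WRC50 raises its own values, so the difference between them was not tested over these genes.

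**Figure D4:**
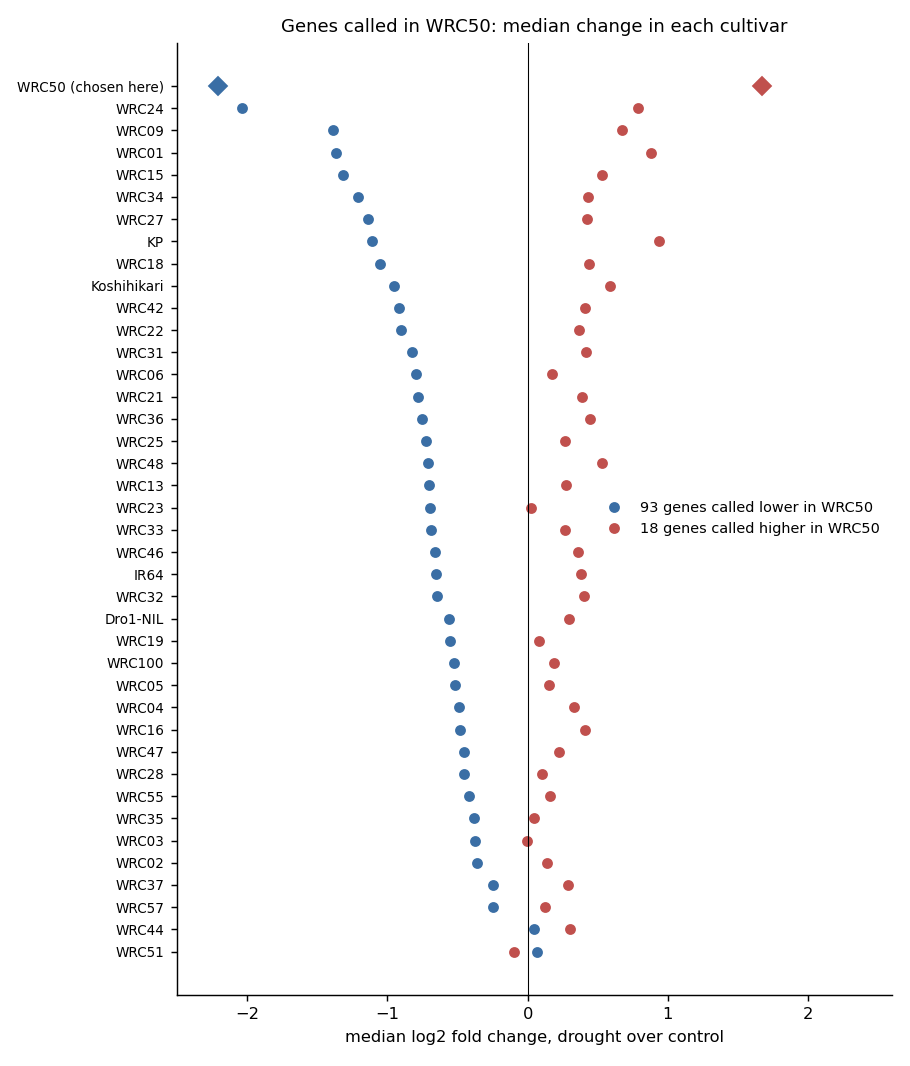
Median log2 fold change of drought over control of the 93 genes called lower (blue) and the 18 called higher (red) in WRC50, 1 row per cultivar. Diamonds mark WRC50, on whose libraries the genes were chosen; the blue circles run from -2.03 in WRC24 to 0.06 in WRC51.

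In the 39 other cultivars, WRC09 included, 88 of the called genes were called in the same direction at least once. The remaining 23 were called in none, 9 of them higher and 14 lower in WRC50. The count without WRC09 was not made. WRC24 shared 75 called genes with WRC50, which is 67.6% of the WRC50 list and 4.99% of the 1503 genes called in WRC24 (5.31% of those tested). KP shared 35 (31.5% of the WRC50 list and 7.73% of its own 453 genes, 1.6% of those tested), and WRC01 shared 33 (29.7% and 14.0% of its own 235 genes, 0.83% of those tested). Koshihikari shared 4 (3.60% and 13.3% of its own 30 genes, 0.106% of those tested). WRC09 and WRC15 shared more than KP. WRC09 shared 49 (44.1% of the WRC50 list and 1.56% of its own 3141 genes). WRC15 shared 38 (34.2% and 9.48% of its own 401 genes). In the opposite direction, 3 genes were called, all in WRC09. In that cultivar 89 genes had at least 5 CPM in all drought libraries and under 0.2 CPM in every control, and 79 genes the reverse, whereas no other cultivar had more than 1 gene of either kind. The 3 genes were LOC_Os04g46880, LOC_Os05g07140 and LOC_Os05g34854, named after their values were seen because they are so few.

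Genes chosen by their calls in the other cultivars gave the reverse view. In at least 4 of the 38 other cultivars (WRC09 left out), 55 genes were called lower in drought and 12 higher. In WRC50 all 55 had a log2 fold change below 0, with a median of -2.01 against a median of -1.02 for their mean in the others. Of the 55, 21 were called in WRC50, where 0.329% of all tested genes were called lower. In 53 (96.4%) all 3 drought libraries lay below all 3 controls, against 8.84% of all tested genes. These shares are over unlike genes. Of the 28297 tested genes, 9605 averaged under 1 CPM in WRC50, and 2270 had no read there. The mean log2 CPM of the 55 in WRC50 was 4.63, 4.27 and 4.46 in drought libraries 1, 2 and 3, against 5.91, 5.92 and 6.61 in control libraries 1, 2 and 3. Controls 1 and 2 were level and control 3 was higher, and no drought library reached any control. With both replicates numbered 3 left out, all 55 were still below 0 in WRC50, with a median of -1.64.

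The 12 recurrently raised genes were all above 0 in WRC50, with a median log2 fold change of 1.49 against 1.01 in the others. Of the 12, 1 was called in WRC50, where 0.0636% of all tested genes were called higher. The mean log2 CPM of the 12 was 4.90, 5.22 and 5.27 in drought libraries 1, 2 and 3, against 3.98, 4.12 and 3.55 in control libraries 1, 2 and 3. In all 12 every drought library lay above every control, against 7.88% of all tested genes. As for the lowered genes, these shares are over unlike genes. With both replicates numbered 3 left out, the 12 stayed above 0, with a median of 1.16. Set among the 40 cultivars from high to low, the WRC50 level of the 55 lowered genes ranked 36 in drought and 24 in control, and that of the 12 raised genes ranked 12 in drought and 21 in control.

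LOC_Os02g14440 and LOC_Os03g54130 show this shared part gene by gene; with LOC_Os01g64910 and LOC_Os10g18150 they had the largest mean changes over the 38 others among genes that averaged at least 5 CPM there and kept 1 sign in at least 34 of them. LOC_Os02g14440 (chromosome 2) had 2.94, 1.18 and 3.02 CPM in drought leaves, against 53.9, 36.1 and 49.1 CPM in control leaves of WRC50. The libraries of each group lay close together here, and the log2 fold change was -4.23 ± 1.00 (SE), with an edgeR adjusted p of 0.0254, against a mean of -2.46 in the others. It was -4.46 to -3.96 without control replicate 3 or any 1 drought replicate, and not called then. LOC_Os03g54130 (chromosome 3) had 39.3, 50.2 and 16 CPM in drought leaves, against 6.94, 10.1 and 8.64 CPM in control leaves. Its groups did not overlap, but its log2 fold change of 2.04 (2.39 without both replicates numbered 3) did not pass the test (edgeR adjusted p of 0.486); the mean of the others was 2.06.

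LOC_Os01g64910 (chromosome 1) had 18.4, 24.4 and 33.4 CPM in drought leaves, against 8.72, 6.84 and 3.18 CPM in control leaves. Its groups did not overlap either, and its log2 fold change of 2.00 (1.45 without both replicates numbered 3) had an edgeR adjusted p of 0.261, with a mean of 1.79 in the others. Both raised genes passed in DESeq2 on the 6 WRC50 libraries alone (adjusted p of 2.69e-05 for LOC_Os03g54130 and 1.54e-05 for LOC_Os01g64910). LOC_Os10g18150 (chromosome 10) had 0.303, 3.00 and 3.13 CPM in drought leaves, against 3.04, 2.69 and 2.88 CPM in control leaves. Drought replicate 1 alone was low and the groups overlapped, with a log2 fold change of -0.59 (edgeR adjusted p of 1). The mean of the other cultivars was -2.79, with an SD of 3.05 between cultivars. Their control levels ran from 0.0331 CPM in WRC19 to 72.7 CPM in WRC46, so that mean includes changes measured at low counts. The difference of WRC50 from that mean was 2.20 ± 1.51 (SE) and was not called in edgeR.

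The size of the shared response was summarised over 500 genes whose change was most alike across the 39 other cultivars, 195 raised and 305 lowered there. WRC09 was among these 39, unlike in the 38 others used above. The slope of the WRC50 log2 changes on the mean changes of the others was 1.31, where 1 means the average response, and it ranked 10 of 40 cultivars. In WRC50 98.6% of the 500 genes had the sign of the others. On the same scale, with 0 at the WRC50 control mean, the drought libraries 1, 2 and 3 scored 1.12, 1.45 and 1.37, against 0.0928, 0.195 and -0.287 for control libraries 1, 2 and 3. All drought libraries stood above all controls, at 1.31 ± 0.174 in drought leaves with an SD of 0.254 among control leaves (n = 3 each). The slopes of WRC24, WRC01, KP and Koshihikari were 2.46, 1.62, 1.40 and 1.35. Leaving out any 1 of the 6 libraries gave a slope between 1.17 and 1.41.

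**Figure D5:**
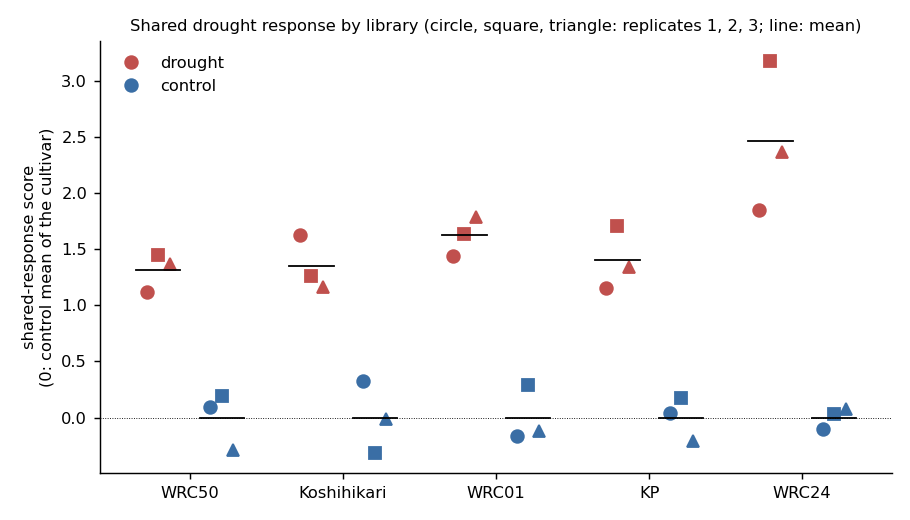
Shared-response score of each library in WRC50 and 4 other cultivars, with 0 at the control mean of the cultivar and 1 at the average drought response of the remaining cultivars; circle, square and triangle are replicates 1, 2 and 3, and lines are means. WRC50 drought libraries (red) lie between 1.12 and 1.45, and its controls (blue) between -0.287 and 0.195.

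The response of WRC50 was set against that of Koshihikari, a japonica variety, by a test of the difference itself. Of 28297 genes, 1 differed at an adjusted p under 0.05 in edgeR (0.00353%), and 724 had an unadjusted p under 0.05. That is fewer than the 1415 that an even spread of p values would give. That gene, LOC_Os05g34170 on chromosome 5, had 0.910, 0.643 and 0.939 CPM in drought leaves of WRC50, against 0.859, 0.846 and 0.695 CPM in its control leaves. The groups overlapped, and no library reached 1 CPM. In Koshihikari it had 0.838, 9.25 and 2.20 CPM in drought leaves, against 33.4, 171 and 90.03 CPM in control leaves. The log2 fold changes were 0.07 in WRC50 and -4.61 in Koshihikari, a difference of 4.68 ± 0.93 (SE), with an edgeR adjusted p of 0.0334. The WRC50 control level ranked 27 of 40 cultivars. In DESeq2 on the 12 libraries of both cultivars alone, 11 genes differed, and LOC_Os05g34170 was given no adjusted p. Its edgeR call was lost without drought replicate 1 or 3 or any control replicate of WRC50, and without drought replicate 1 or 3 or control replicate 2 of Koshihikari, with differences of 3.99 to 4.72 there.

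Against the mean response of the 38 other cultivars, 1 gene differed at an adjusted p under 0.05 in edgeR (0.00353%), and 970 had an unadjusted p under 0.05. An even spread of p values would give 1415, more than were found. This gene, LOC_Os06g47130 on chromosome 6, had 5.07, 6.00 and 2.09 CPM in drought leaves of WRC50, against 27.9, 33.2 and 50.5 CPM in its control leaves. Every drought library was far below every control. Its log2 fold change in WRC50 was -3.06 ± 0.46 (SE), with an edgeR adjusted p of 8.17e-06, the lowest of all tested genes. In the others the mean log2 fold change was -0.65 with an SD of 0.94 between cultivars, and the difference was -2.41 ± 0.45 (SE), with an edgeR adjusted p of 0.00917. Decreases of like size were measured in KP (-3.64), WRC24 (-3.20), WRC01 (-2.97) and Koshihikari (-2.46). In control leaves the WRC50 level ranked 19 of 40, so the gene was not set apart by its level under irrigation. Its decrease in WRC50 passed the test whichever 1 of the 6 libraries was left out, with edgeR adjusted p values of 5.16e-06 to 0.00579. Without both replicates numbered 3 it was -2.48 and not called (edgeR adjusted p of 0.216). The difference from the others was not called without drought replicate 1, drought replicate 3 or control replicate 3.

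LOC_Os01g19850, the gene that the reference paired by a synonym (OsCCC2, a cation-chloride cotransporter, which moves potassium and chloride together across membranes), had 0.516, 0.536 and 0.313 CPM in drought leaves, against 0.396, 0.461 and 0.0993 CPM in control leaves. The groups overlapped, and its log2 fold change of 0.48 had an edgeR adjusted p of 0.833.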

How the data were processed

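RNA was selected by poly(A) and made into strand-specific libraries, per the labels' protocols. The build IRGSP-1.0 and the tools STAR and featureCounts 2.0.0 are named per the submitters' processing notes. The authors deposited 1 table of raw read counts per gene for 55986 identifiers; annotation release, strand setting and filters are not given in the sources used here. Each column was matched to its sample by the library name.

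Counts were analysed in R 4.3.3 with edgeR 4.0.16: filterByExpr (minimum count 10) kept 28297 genes, TMM scaled the libraries, and a quasi-likelihood model with 1 mean per cultivar and treatment was fitted to 239 libraries, with the dispersion trend estimated on 2000 genes. The arrangement was checked against glmQLFTest on 300 genes (p differed by at most 1.62e-12 within a cultivar and 0.000386 for a difference of responses) and tested on simulated data. Benjamini-Hochberg adjustment ran over all tested genes. Genes were called at an adjusted p under 0.05 and a fold of at least 2, or any fold for a difference of responses. SE is the log2 fold change over the root of F. Log2 CPM used a prior of 2 CPM. DESeq2 1.42.0 was an alternative, and Python 3.11.15 summarised the values.

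Genes were named by size: at most 2 per direction and comparison, with a mean of at least 5 CPM and, for WRC50, groups that did not overlap. The members, comparisons and lists were chosen with earlier results of these data known. Lists of drought, photosynthesis, infection and other genes were not tested, since identifiers and names were paired for 1 gene. Of each gene, start and end are not given, and sequences are not used here.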

Additional observations from a re-analysis of the deposited data

Results flagged for a closer look

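The drought response differed between WRC50 and other cultivars in 2 genes, each by a test of the difference of responses itself. LOC_Os05g34170 differed by 4.68 on the log2 scale between WRC50 and Koshihikari; it lost this call in 12 of 19 alternatives, among them 8 of the 12 that left out 1 library, with edgeR adjusted p values of 0.000116 to 1 over all alternatives. WRC50 read it at about 1 CPM or less in all 6 libraries, and 5 cultivars held over 40 CPM in control leaves. LOC_Os06g47130 differed by -2.41 between WRC50 and the mean of the 38 others. It lost this call in 3 of 9 alternatives, and the edgeR adjusted p was 0.00872 to 0.604 over them. Its decrease was not particular to WRC50: it was -3.64 in KP, -3.20 in WRC24, -2.97 in WRC01 and -2.46 in Koshihikari. The gene was called lower in 4 of the other cultivars.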

How the results depend on the processing

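Beside the 93 lower and 18 higher genes of WRC50, 58 were called with no filter on low counts, and 24 (8 of them shared, all 24 lower) with the 6 libraries fitted alone in edgeR, against 425 (88 shared) alone in DESeq2. Leaving out 1 library gave 1 to 159 genes, and leaving out both replicates numbered 3, an alternative chosen after seeing the data, gave 0. Fewer libraries were fitted by construction; the cause was not otherwise tested. Other settings gave 84 to 122 genes. For the difference from Koshihikari, counts were 0 without the libraries under 1 M reads, WRC09 and 3 libraries of WRC16 and WRC35 that lay midway between 2 cultivars, 0 without both replicates numbered 3, 0 fitted alone in edgeR and 11 in DESeq2, and 0 to 1 with 1 library left out. For the difference from the mean of the others, leaving out 1 library gave 0 to 13 genes. With the replicate number as a block, fitted alone, 1 gene was called in WRC50 and 0 differed from Koshihikari. The numbers were not taken as pairs because the labels do not say that they pair plants. Deviations of same-numbered libraries correlated at 0.531, -0.165 and 0.207, against -0.425 to 0.373 for other-numbered libraries. With so few libraries these values do not settle whether the numbers pair. The block was not run for the difference from the mean of the others. LOC_Os10g18150 turned to 0.096 without drought replicate 1 (-1.08 without both replicates numbered 3). LOC_Os01g16310 lost its call in 14 of 16 alternatives, LOC_Os09g34140 and LOC_Os10g30410 in 7 of 16 each, LOC_Os02g14440 in 5 of 16, LOC_Os09g26670 in 5 of 15 and the WRC50 decrease of LOC_Os06g47130 in 3 of 16. The shared-response slope stayed at 1.17 to 1.41 in the alternatives run. The direction in other cultivars was otherwise measured only for called genes of at least 5 CPM (90.8%). It was not measured with a library left out, with another scaling or with WRC50 fitted alone. Depth of 8.52 to 30.2 M reads limits genes under 1 CPM, and thinning all 6 libraries to the shallowest called 97 genes.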

Other observations

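Genes called in WRC50 were found on all 12 chromosomes. Chromosome 1 held 7 higher and 17 lower genes, 0.630% of those tested there, chromosome 2 held 17 lower and 0 higher (0.546%), and chromosome 12 had the lowest share, with 3 lower genes (0.169%). Identifiers of this form run along the chromosomes, and 12 of the called genes formed 6 pairs that were neighbours among the tested genes. Both genes of a pair moved the same way in all 6. On chromosome 8 a pair fell by 4.01 and 4.14 on the log2 scale, on chromosome 9 by 3.38 and 1.80, and on chromosome 12 by 3.98 and 2.20, and the pair on chromosome 6 rose by 1.48 and 1.32. Of the pairs just given, those on chromosomes 6 and 12 each held a gene whose groups overlapped. Reads shared between neighbouring gene models or near-identical copies were not examined.

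At least 5 CPM in the WRC50 libraries and no read in any other library of at least 1 M reads was found for 0 genes, and 2270 of the tested genes had no read in the 6 WRC50 libraries.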
